A study of Homo sapiens with 6 samples.

Results

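BEX3, SNRNP70, TKT, UBE2K and TUBB2A are the 5 genes that hold the highest-scoring peaks of the RIP-1 mRNA list among peaks with no partner in the RIP-2 mRNA list. They were followed through all deposited peaks of an RNA immunoprecipitation and sequencing (RIP-seq) study of SF3B4. A deposited peak was taken as a member when it overlapped a gene interval (hg19) by at least 1 bp, which gave 24 of 181131 peaks. Of these, 10 stood in the RIP-1 mRNA list, 8 in the RIP-1 non-exon list, 0 in the RIP-2 mRNA list and 6 in the RIP-2 non-exon list. The genes were chosen on their RIP-1 score and on the absence of an overlapping peak in RIP-2, so these values are a description and were not tested.

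SF3B4 was immunoprecipitated from wild-type HEK293T, a human embryonic kidney line that carries the SV40 large T antigen, in 2 RIP experiments named RIP-1 and RIP-2. The 6 libraries form 3 groups (anti-SF3B4, IgG and input) of 2, with 1 of each kind in either experiment, and the labels name no treatment or genetic change. The deposited data are peak lists of each experiment, 1 named mRNA and 1 named NotExon (called the non-exon list here), and they carry no values per library. Which library, IgG or input, was the control of the calls is not stated in what was used here. The depth of the libraries is unknown, and no value has a replicate error, since an experiment has a single list of each kind. A gene without a peak is therefore a gene in which no interval passed the authors' calling threshold, and not a gene without bound RNA.

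SF3B4 belongs to SF3b, the protein complex with which the U2 snRNP holds the branch site of an intron during splicing, and METTL16, which the title of the series pairs with it, methylates adenosines in RNA. Branch sites lie in introns near the 3′ splice site. An exon at the very start or end of a gene has an intron on a single side. Whether either bears on where the peaks lie was not tested. The 5 genes have unrelated functions. SNRNP70 encodes the U1-70K protein of the U1 snRNP, the particle that recognises 5′ splice sites. TKT encodes transketolase, an enzyme of the non-oxidative pentose phosphate pathway. UBE2K encodes a ubiquitin-conjugating enzyme that can build ubiquitin chains. TUBB2A encodes a beta-tubulin, and BEX3 a small protein of the brain-expressed X-linked family that was described as a partner of a neurotrophin receptor.

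In 3 of the 5 genes (SNRNP70, TKT and UBE2K) the highest RIP-1 peak lay at the 5′ end of the gene, and in BEX3 and TUBB2A it lay at the 3′ end. The share of all RIP-1 mRNA-list peaks that lie at a gene end was not computed, since no annotation of hg19 was used. These positions are therefore not shown to be particular to the 5 genes. The annotated starts of the 3 genes with a peak at the 5′ end are shown, with that of TUBB2A beside them. The sequences are RefSeq's (GRCh38.p14). Each has 60 bases before the annotated start in lower case and the first 30 transcribed bases in capitals. They belong to another build than the peaks and were matched by gene symbol. Whether the hg19 peak edges fall inside these stretches, before them or after them was therefore not determined.
SNRNP70 (chr19:49085391-49085480, plus strand): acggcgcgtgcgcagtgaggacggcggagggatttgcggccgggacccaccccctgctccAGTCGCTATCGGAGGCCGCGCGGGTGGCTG
TKT (chr3:53255993-53256082, minus strand): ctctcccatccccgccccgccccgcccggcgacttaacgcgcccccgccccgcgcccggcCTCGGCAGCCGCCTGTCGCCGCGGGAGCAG
UBE2K (chr4:39698076-39698165, plus strand): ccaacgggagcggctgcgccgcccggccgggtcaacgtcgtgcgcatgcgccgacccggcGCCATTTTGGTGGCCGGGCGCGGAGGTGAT
TUBB2A (chr6:3157515-3157604, minus strand): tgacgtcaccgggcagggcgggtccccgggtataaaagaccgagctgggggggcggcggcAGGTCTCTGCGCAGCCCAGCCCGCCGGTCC

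All 4 starts were rich in G and C. Over the window of 300 bases around the start (250 before and 50 after), the G and C content was 72.3% for SNRNP70, 70.7% for TKT, 75.3% for UBE2K and 79.0% for TUBB2A, against a median of 58.7% over 35116 RefSeq windows. A G and C content at least as high was found in 15.1%, 18.8%, 8.96% and 3.66% of all windows, respectively, so only that of TUBB2A lay in the upper 5%. The word TATAAA, searched on both strands, occurred in the TUBB2A window alone among the 4 genes, beginning 30 bases before the start, and 11.5% of all windows hold it. The word TACAGAGAA, the core of the METTL16 consensus, was in none of the 4 windows and in 0.316% of all windows. Nearly all windows lack it, and most of each window lies before the annotated start, outside the transcribed RNA. Its absence here therefore says nothing about METTL16 at these genes. BEX3 has 3 annotated starts, whose windows had G and C contents of 57.7%, 67.0% and 72.7% and held neither word. A match or its absence describes these letters only.

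The score of a peak is the authors' value, a larger one meaning a smaller p-value in MACS, the caller named in the peak identifiers. The 5 highest peaks scored 3218.01 in BEX3, 3209.05 in SNRNP70, 3201.24 in TKT, 3152.42 in UBE2K and 3128.69 in TUBB2A, where the median of the 10960 peaks of the RIP-1 mRNA list was 79.9. They hold ranks 1 to 5 of that list, in which 0.529% of peaks (58) scored 3100 or more. Just outside this choice, the peak at rank 6 scored 3107.52 (chr1:153957459-153957668) and that at rank 7 scored 3102.25 (chr2:219134104-219134463). The next 51 peaks all scored exactly 3100, which leaves them without an order. This value is not an upper limit, since 7 peaks of the list scored above it, and why so many peaks share it was not determined. No peak of the other 3 lists scored above 3100. The first 5 places are thus uncertain, and the peaks at 3100 may be as strong or stronger.

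**Figure D1:**
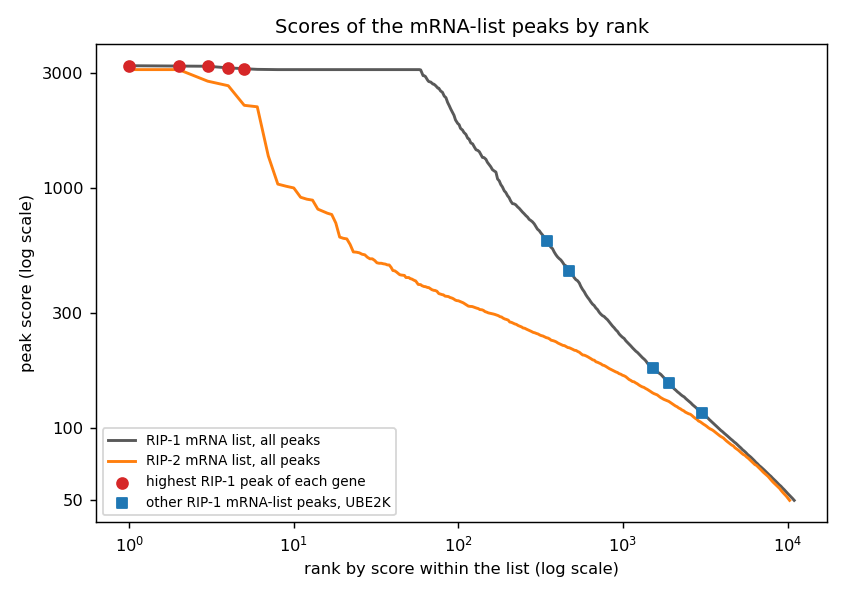
Peak score (vertical, log scale) against rank within the list (horizontal, log scale) for all peaks of the RIP-1 (grey line) and RIP-2 (orange line) mRNA lists. The highest RIP-1 peaks of the 5 genes (red points) stand at ranks 1 to 5, on the flat part of the curve near 3100, and the other 5 UBE2K peaks (blue squares) at ranks 345 to 3015.

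No peak of the RIP-2 mRNA list fell in any of the 5 gene intervals, and 3.01% of all windows of 10 kb hold such a peak. The windows have a fixed length and cover the chromosomes with or without genes, while the intervals run from 1.82 to 84.8 kb. That share is therefore not an expected value for these genes. None of the 10 RIP-1 mRNA-list peaks in these genes overlapped a RIP-2 mRNA-list peak. Over the whole list 6.41% of RIP-1 mRNA-list peaks had such a partner. For the 5 highest peaks this absence was part of the choice, and nothing is read from it. None of the 10 overlapped a RIP-2 peak of either list, strand ignored, against 6.59% over the list. The other 5 UBE2K peaks were not chosen by this absence, but they belong to a chosen gene, and a count of 0 among so few peaks shows no difference from that share. None of the other 53 peaks of the RIP-1 mRNA list at 3100 or more overlapped a RIP-2 peak of either list either. The lack of a partner was therefore not particular to the 5 chosen peaks.

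The nearest RIP-2 mRNA-list peak lay 45.6 kb from the BEX3 peak, 61.6 kb from the SNRNP70 peak, 72.6 kb from the TUBB2A peak, 125 kb from the 5′ peak of UBE2K and 133 kb from the TKT peak. Each of these distances leads out of the gene. The 6 UBE2K peaks share 1 nearest RIP-2 mRNA-list peak (chr4:39824645-39827108), so the 10 member peaks stand for 5 genes and are not independent. The median distance was 55.4 kb for all RIP-1 mRNA-list peaks and 109 kb for the other 53 peaks at 3100 or more. None of the 10 member peaks had a RIP-2 mRNA-list peak within 10 kb, where 19.3% of all RIP-1 mRNA-list peaks did. A RIP-2 peak of either list lay within 10 kb of 4 of the 10, against 50.3% over the list. Among the other 53 peaks at 3100 or more these shares were 3.77% (2 peaks) and 22.6% (12 peaks). The lack of a near RIP-2 mRNA-list peak was thus usual at that score and is not shown to be particular to these genes. The distances to RIP-2 peaks of either list ranged from 6.48 kb (the UBE2K peak at chr4:39757276-39757359) to 34.0 kb (SNRNP70). The distances of the members thus fell on both sides of the list's median for the RIP-2 mRNA list.

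**Figure D2:**
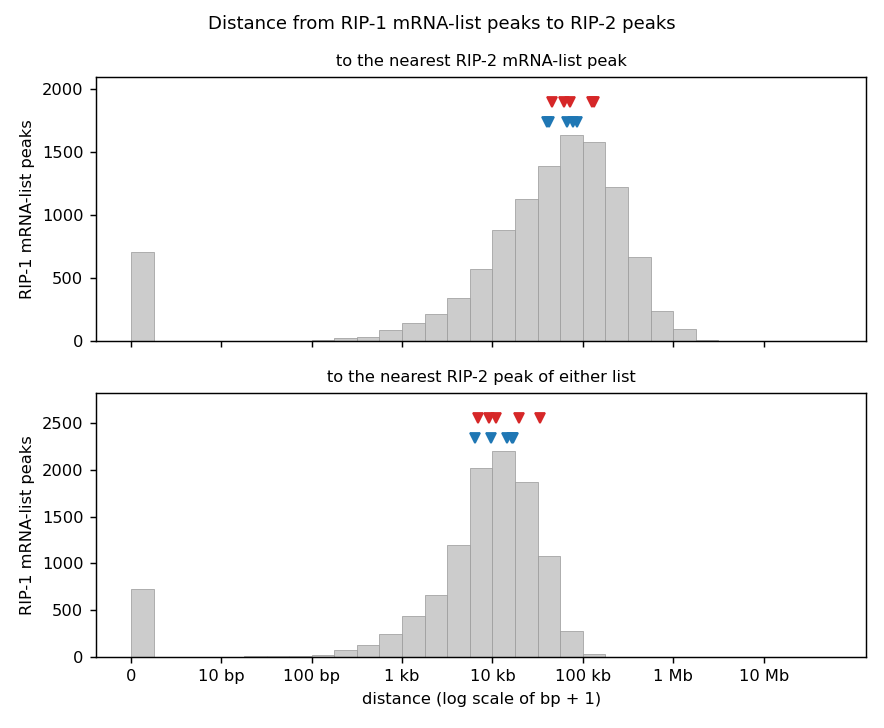
Number of RIP-1 mRNA-list peaks (vertical) by distance (horizontal, log scale of bp plus 1) to the nearest RIP-2 mRNA-list peak (top) and to the nearest RIP-2 peak of either list (bottom), with 0 for overlapping peaks. Red triangles mark the highest peaks of the 5 genes and blue triangles the other 5 UBE2K peaks. All 10 lie at 40.6 kb or more in the top panel and within the main body of the histogram in both. In the top panel all UBE2K distances lead to the same RIP-2 peak.

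SNRNP70 lies on the plus strand of chromosome 19 (chr19:49588465-49611870, 23.4 kb). Its mRNA-list peak, chr19:49588471-49588893, began 6 bp after the 5′ end of the gene interval and was 422 bp long, or 1.81% of the gene. The rest of the gene carried 3 RIP-1 non-exon peaks, for which the authors give a fold enrichment over their control and a false discovery rate (FDR). The first, chr19:49593011-49595566, had a score of 637.77, a fold enrichment of 17.92 and an FDR of 4.25%. The second, chr19:49600173-49604929, had a score of 222.32, a fold enrichment of 8.53 and an FDR of 33.35%. The third, chr19:49605256-49612209, had a score of 496.29, a fold enrichment of 14.33 and an FDR of 4.24%, and it ended 339 bp beyond the 3′ end of the gene. Together the 3 covered 59.5% of the gene, mostly its 3′ part. The fold enrichments compare with a median of 6.55 (interquartile range 5.39 to 7.68) over the RIP-1 non-exon list. RIP-2 had no peak of either list in SNRNP70, and its nearest lay 34.0 kb upstream and 63.0 kb downstream of the gene.

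TKT lies on the minus strand of chromosome 3 (chr3:53258723-53290130, 31.4 kb). Its mRNA-list peak, chr3:53289851-53290130, was 279 bp long and reached exactly to the 5′ end of the interval. Toward the 3′ end, 2 RIP-1 non-exon peaks followed each other with a gap of 28 bp. The first in the direction of transcription, chr3:53275862-53277311, had a score of 2173.39, a fold enrichment of 24.65 and an FDR of 4.03%. The second, chr3:53258562-53275834, had a score of 2574.61, a fold enrichment of 15.77 and an FDR of 1.92%. At 17273 bp it is the longest of all 25797 peaks of the RIP-1 non-exon list, whose median length is 710 bp, and its FDR ranks 5 in a list whose lowest FDR is 1.74%. It covered 54.5% of the gene and ended 161 bp beyond the 3′ end. Between the 5′ peak and these peaks lay 12.5 kb without a RIP-1 peak.

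RIP-2 marked another place in TKT. Its 2 non-exon peaks there, chr3:53282354-53283023 and chr3:53281596-53282272, had scores of 95.01 and 108.77, fold enrichments of 6.26 and 8.21 and an FDR of 100% each. Both fell inside the 12.5 kb that held no RIP-1 peak, so RIP-1 and RIP-2 peaks interleaved in this gene without overlapping. Such separation was the usual case, since only 18.1% of the RIP-1 non-exon list shared any base with the RIP-2 non-exon list. A RIP-2 non-exon peak also stood in 33.6% of all windows of 10 kb. The placement is therefore not shown to be particular to TKT. The fold enrichments were below the median of the RIP-2 non-exon list for the first (8.19) and close to it for the second.

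In SNRNP70 and TKT a non-exon peak of RIP-1 covers the 3′ end of the gene interval, where the last exon of a gene ends. The sources used here do not define the name of the list, and at these 2 genes it cannot be read as intervals that avoid every exon. No annotation of hg19 was used here, so which exons the peaks cover was not determined.

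UBE2K is the longest of the 5 genes, on the plus strand of chromosome 4 (chr4:39699663-39784412, 84.8 kb), and held the most peaks. Its highest mRNA-list peak, chr4:39699663-39700010, began at the first base of the interval and was 347 bp long. Another 5 RIP-1 mRNA-list peaks, all on the gene's strand, followed along the gene. The 3 in the middle were short, at 94, 59 and 83 bp, with scores of 154.03 (chr4:39739039-39739133), 115.49 (chr4:39747371-39747430) and 177.04 (chr4:39757276-39757359). The last 2 were long, at 1925 and 1677 bp, with scores of 600.85 (chr4:39779979-39781904) and 450.71 (chr4:39782372-39784049), and the final one ended 363 bp before the 3′ end. Scores in UBE2K were thus highest at its 5′ end, next highest at its 3′ end and lowest between. Each of the 6 stood above the list median of 79.9. Runs of at least 6 RIP-1 mRNA-list peaks on 1 strand within the length of UBE2K held 12.3% of that list, so such a run is not rare.

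UBE2K also carried non-exon peaks in both experiments. The 3 RIP-1 peaks had fold enrichments of 5.03, 5.24 and 4.06 in the direction of transcription, scores of 50.83, 77.71 and 177.54, and FDRs of 100%, 100% and 58.64%. All 3 fold enrichments were under the lower quartile of the list. The 4 RIP-2 peaks had fold enrichments of 5.36, 4.89, 7.00 and 6.66, scores of 111.24, 127.41, 52.30 and 109.01, and FDRs of 100%, 100%, 69.79% and 100%. All 4 fold enrichments were under the RIP-2 median of 8.19, and those of 5.36, 4.89 and 6.66 were also under its lower quartile of 6.75. One pair overlapped between the experiments, chr4:39720245-39722559 of RIP-1 and chr4:39719900-39721232 of RIP-2. They shared 988 bp, which is 42.7% of the former and 74.1% of the latter. This was 1 of the 8 RIP-1 non-exon peaks in the 5 genes, while 18.1% of that whole list overlapped a RIP-2 non-exon peak.

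**Figure D3:**
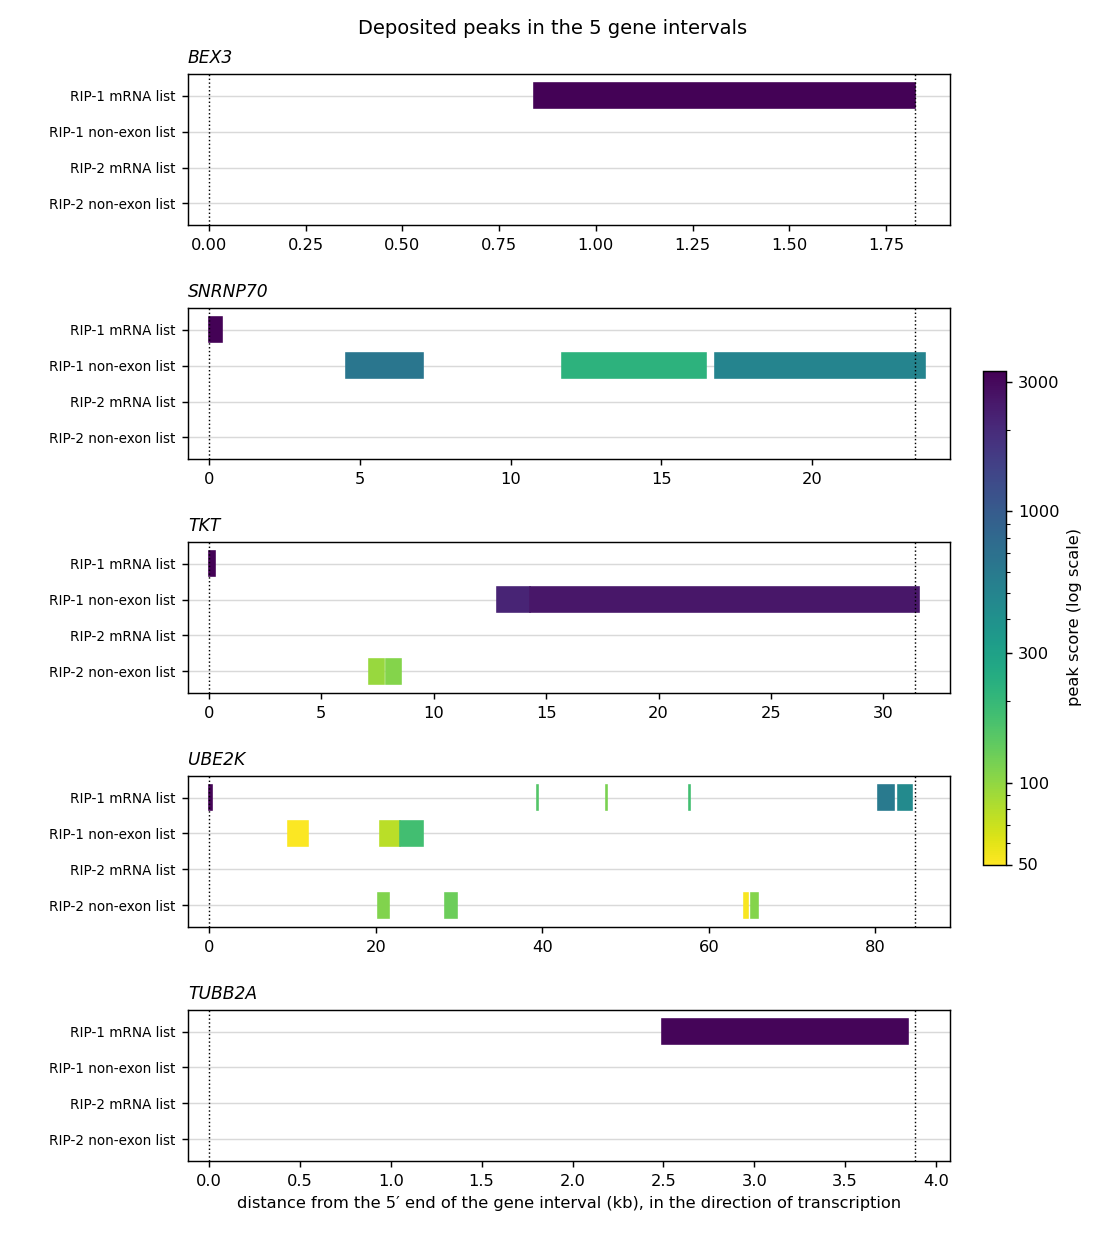
Deposited peaks in each gene, drawn by distance from the 5′ end of the gene interval (horizontal, kb, in the direction of transcription; dotted lines mark both ends), with a row for each of the 4 lists and the peak score as colour (log scale). The outline makes the shortest peaks visible and is wider than they are. The highest RIP-1 mRNA-list peak sits at the 5′ end of SNRNP70, TKT and UBE2K and in the 3′ part of BEX3 and TUBB2A, UBE2K has 5 more along its length with the longest at the 3′ end, the RIP-2 mRNA row is empty throughout, and RIP-1 non-exon peaks run past the 3′ ends of SNRNP70 and TKT.

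BEX3 lies on the plus strand of chromosome X (chrX:102631268-102633092) and, with 1825 bp, is the shortest of the 5. Its only peak in any list was the RIP-1 mRNA-list peak chrX:102632108-102633092, the highest-scoring of the list. It was 984 bp long, covered 54.0% of the gene and ended exactly at its 3′ end, with its midpoint at 73.0% of the length from the 5′ end. The peak stood alone in RIP-1, with the next RIP-1 peaks 83.8 kb upstream and 94.5 kb downstream of the gene. RIP-2 non-exon peaks lay closer, 8.27 kb upstream with a score of 70.01 and 9.47 kb downstream with a score of 91.69.

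TUBB2A lies on the minus strand of chromosome 6 (chr6:3153900-3157783, 3.88 kb). Its only peak in any list was likewise the RIP-1 mRNA-list peak, chr6:3153939-3155289. It was 1350 bp long, covered 34.8% of the gene and ended 39 bp before the 3′ end, with its midpoint at 81.6% of the length from the 5′ end. The nearest RIP-1 mRNA-list peak on the upstream side, 66.7 kb away on the same strand, scored 3100 (chr6:3224494-3226045, 1551 bp). TUBB2B, whose coding sequence is nearly identical to that of TUBB2A, is the next protein-coding gene on that side in RefSeq's order of genes (GRCh38.p14), but the peak was not assigned to a gene here. How reads that fit both copies were placed is not stated in what was used here, so the TUBB2A score is uncertain.

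RIP-1 mRNA-list peaks covered 985 bp of BEX3, 1351 bp of TUBB2A, 423 bp of SNRNP70, 280 bp of TKT and 4191 bp of UBE2K, where the 2 peaks near the 3′ end made up most of it. As a share of the gene this was 54.0%, 34.8%, 1.81%, 0.891% and 4.95%, and the same covered length makes a smaller share of a longer gene. RIP-1 non-exon peaks covered 59.5% of SNRNP70, 59.1% of TKT and 8.81% of UBE2K, and no non-exon peak was called in BEX3 or TUBB2A in either experiment. Over the chromosomes up to their last peak, RIP-1 mRNA-list peaks covered 0.171% and stood in 3.19% of windows of 10 kb, and RIP-1 non-exon peaks covered 0.781% and stood in 8.25%. The members were chosen for a strong RIP-1 signal, so this contrast with the genome is a description. RIP-2 non-exon peaks covered 4.29% of TKT, 4.84% of UBE2K and 0% of the other 3 genes, against 2.81% of the span, and 33.6% of all windows of 10 kb hold at least 1 of them.

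By FDR, 4 of the 8 RIP-1 non-exon peaks in the 5 genes were at 5% or less, 2 in SNRNP70 and 2 in TKT, against 0.678% of that list (175 of 25797). This is the same RIP-1 call that chose the genes and is given without a test. None of the 6 RIP-2 non-exon peaks reached 5%, as was so for the whole RIP-2 list, whose lowest FDR was 68.31%. An FDR of 100% was given to 94.1% of RIP-1 non-exon peaks and to 41.6% of those in RIP-2, and in the 5 genes to 2 of 8 RIP-1 peaks, both in UBE2K, and to 5 of 6 RIP-2 peaks.

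**Figure D4:**
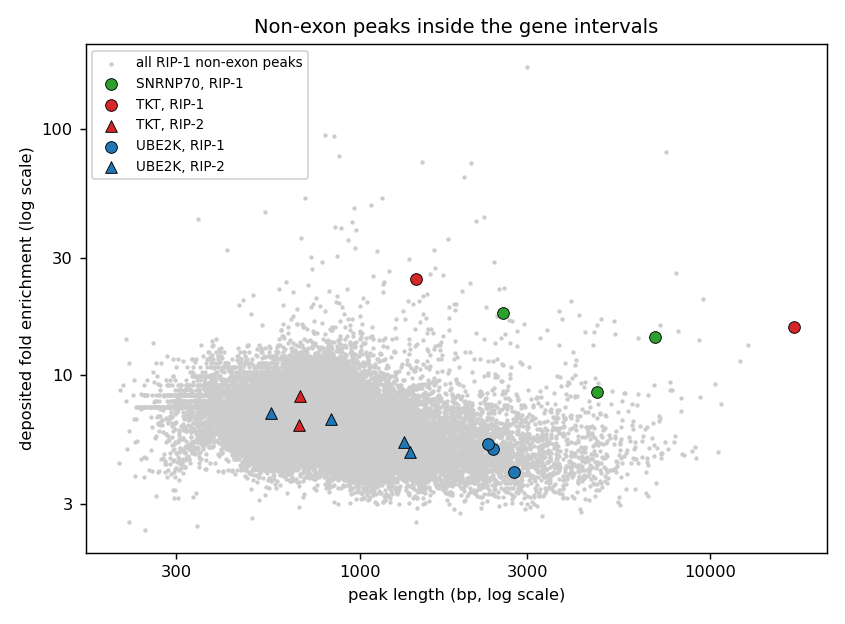
Fold enrichment as deposited (vertical, log scale) against peak length (horizontal, bp, log scale) for all RIP-1 non-exon peaks (grey), the RIP-1 peaks in SNRNP70, TKT and UBE2K (circles) and the RIP-2 peaks in TKT and UBE2K (triangles). SNRNP70 and TKT circles lie at fold enrichments of 8.53 to 24.65 and lengths of 1450 to 17273 bp, and UBE2K circles at 4.06 to 5.24, inside the grey cloud.

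The highest peaks of these genes overlapped in length with the others of that score. The 5 were 279 to 1350 bp long, with a median of 422 bp. The other 53 peaks at 3100 or more were 81 to 4551 bp long, with a median of 1086 bp and an interquartile range of 359 to 1920 bp. The median over the whole RIP-1 mRNA list was 216 bp. A RIP-1 non-exon peak lay within 10 kb of 3 of the 5 (SNRNP70, UBE2K and TUBB2A), of 19 of the other 53, and of 31.9% of all RIP-1 mRNA-list peaks. The TUBB2A neighbour lay outside the gene, 8.60 kb from the peak. With 5 genes chosen on score, these side-by-side values carry no test.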

How the data were processed

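Immunoprecipitated and input RNA was depleted of ribosomal RNA and sequenced in pairs of 150 bp, per the labels. The submitters' processing notes name HISAT2 2.0.4, cutadapt 1.9.3 and hg19. The authors deposited peaks called once per RIP experiment. Deposited peak scores behave as 10 times −log10 of the p-value, and the non-exon lists add a deposited ratio (fold enrichment over a control not named), a deposited FDR in percent and the length (unit other). These columns have no header and were read from their values and order. No source used here states the caller's version, its settings or the depth.

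Peaks overlapping each gene interval by 1 bp or more were extracted (Python 3.11.15, pandas 2.3.3). Gene strand is that of its mRNA-list peaks. Non-exon lengths count both ends; mRNA-list lengths are end minus start, uncertain by 1 bp. Partners overlapped by 1 bp or more, on the same strand between mRNA lists. Peak numbers run without gaps across both lists of an experiment, so no peak of a call is missing between members. The overlap code was tested on simulated intervals. No test was run, since each experiment has 1 list of each kind and the genes were chosen on these values. Named were the 5 genes and the next peaks by score. The members and lists were chosen with earlier results of these data known. Related genes fixed for comparison (U1 proteins, pentose phosphate enzymes, BEX, tubulin and ubiquitin-conjugating families) need hg19 positions and were not analysed here.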

Additional observations from a re-analysis of the deposited data

How the results depend on the processing

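Of 29 alternative values, 27 stayed within 1.5 times the value for counts or, for shares covered, within a binomial interval. That interval takes each base as independent, which bases of the same peak are not. For these shares the peak starts were moved by 1 bp only, which can hardly change them. Some of the 27 could not change and add no support: gene strand was taken from the RIP-1 mRNA-list peaks themselves, and a stricter overlap, strand or score can only lower a count that was already 0. The 2 others concern RIP-2 non-exon peaks in the 5 genes. Their number rose from 6 to 10 when intervals were widened by 10 kb on each side, and was 0 when only the strongest RIP-2 non-exon peaks were kept, as many as RIP-1 has. The number of RIP-2 mRNA-list peaks was still 0 with intervals widened by 1 kb and by 10 kb. The choice of the genes required that their highest RIP-1 peak overlap no such peak, but set no such condition on the rest of the interval. Of the other 53 RIP-1 mRNA-list peaks at 3100 or more, only 2 had a RIP-2 mRNA-list peak within 10 kb. The count of 0 is therefore not shown to be particular to the 5 genes. The RIP-2 mRNA list is shorter than that of RIP-1, so lists of equal length were not run for it. Leaving out 1 experiment leaves the other's lists as printed. No paired analysis was possible because the lists hold no values of single libraries. Unknown depth limits every comparison of the experiments.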

Other observations

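Beside SNRNP70, TKT and UBE2K, the nearest peaks of the experiments lay at different places, in lists of which 6.59% of RIP-1 mRNA-list and 18.1% of RIP-1 non-exon peaks overlap a RIP-2 peak at all (of either list for the former, non-exon for the latter). In the 40 kb after the 3′ end of SNRNP70, RIP-1 had 5 mRNA-list peaks, all on the plus strand, between chr19:49633634 and position 49646261, with scores of 96.27 to 271.22, and the nearest RIP-2 peak on that side lay 63.0 kb from SNRNP70. Downstream of TKT, the nearest RIP-1 peak lay 3.57 kb away with a score of 61.37 (chr3:53253423-53255151) and the nearest RIP-2 peak 5.88 kb away with a score of 298.71 (chr3:53250958-53252843), both from the non-exon lists. The nearest RIP-1 peaks outside UBE2K lay 198.0 kb upstream and 61.9 kb downstream, and the nearest RIP-2 peaks 59.6 kb upstream and 40.2 kb downstream.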
